A study of Mus musculus with 5 samples.

Results

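Polycomb repressive complex 2 (PRC2) was followed at the level of guide RNAs in a pooled CRISPR screen of mouse embryonic stem (ES) cells. The genes were chosen by name: the methyltransferases Ezh2 and Ezh1, the core subunits Eed and Suz12, the histone chaperones Rbbp4 and Rbbp7, and the accessory subunits Jarid2, Aebp2, Mtf2, Phf1 and Phf19. All 11 genes were in the library with 10 guides each, so the members are 110 of 17820 guides and 11 of 1682 genes. A minimum of 30 reads in each of the 2 plasmid libraries left 99 of these guides, among 15336 kept in all, with between 7 and 10 per gene.

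In the screen a lentiviral library of guides against transcription factors and chromatin regulators was put into ES cells, which were then held under Zeocin, the drug that selects transduced cells. The share of reads that a guide takes up reports how common its carriers are among the cells sequenced. There were 5 libraries: 2 from maxipreps of the plasmid pool, and 1 each from transduced cells at days 5, 8 and 12. The genotype Ainv15(iNgn2 Tubb3::GFP) and the treatment "No treatment" are given for every library. The plasmid libraries have the same cell type and genomic DNA labels as the cells, although their titles name a plasmid preparation, and the titles were followed here. The titles count days from transduction, whereas the protocol counts the first time point from the start of selection, so days serve as names of time points except in slopes per day. The source of Cas9 is not given in the sources used here, and guide counts hold no expression values against which the ES cell identity could be checked.

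PRC2 methylates H3K27, a lysine in the tail of histone H3, and this mark is found at silent developmental genes in ES cells. Its catalytic subunit is EZH2 or the related EZH1, and neither works without EED, which binds the finished mark, and SUZ12, the scaffold on which the complex is built. The accessory proteins assemble on SUZ12 in alternative forms, one with JARID2 and AEBP2 and one with a Polycomb-like protein (MTF2, PHF1 or PHF19), and steer the complex to chromatin. RBBP4 and RBBP7 also belong to deacetylase, remodelling and nucleosome assembly complexes.

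The 30 guides to Ezh2, Eed and Suz12 are shown first because these 3 genes, whose proteins form the catalytic core, gave different courses. Each sequence is the 20-base guide as deposited, 5′ to 3′. Capitals mark a run of at least 10 bases that also occurs, on either strand, in another guide to the same gene, so that the pair covers overlapping sequence.
Ezh2 guide 1: TAGCAAAGATGCCTATCCtg
Ezh2 guide 2: caggatgaagcagacagaag
Ezh2 guide 3: GGATAGGCATCTTTGCTAag
Ezh2 guide 4: GTTAATGGTGACCACaggat
Ezh2 guide 5: tgatgGTTAATGGTGACCAC
Ezh2 guide 6: gctaagagggctatccagac
Ezh2 guide 7: tgtggtggatgcaacccgaa
Ezh2 guide 8: catacttcagggcatcagcc
Ezh2 guide 9: TGTGGGCATCGAACgagaaa
Ezh2 guide 10: GTTCGATGCCCACAtacttc
Eed guide 1: acactgacccatcataaatg
Eed guide 2: catcatcgcagacagctatg
Eed guide 3: CTTGCATTGGGCAATCaggt
Eed guide 4: ttcgacaaaccagtttcagt
Eed guide 5: tcgatcccaTCGCCAAATGC
Eed guide 6: attatGTTGATTGTGTGCGA
Eed guide 7: atgatgccaGCATTTGGCGA
Eed guide 8: gatgCTTGCATTGGGCAATC
Eed guide 9: GTTGATTGTGTGCGAtggtt
Eed guide 10: aggttggcaaactgtatgtt
Suz12 guide 1: atggcgcctcagaagcacgg
Suz12 guide 2: cttcttcaccggcaacaccg
Suz12 guide 3: tcaaaagtagagaaaatgaa
Suz12 guide 4: tgaacaaaattctgttaccc
Suz12 guide 5: gcttcgggcggcaaatccgg
Suz12 guide 6: agaaatctatatatctgtgt
Suz12 guide 7: ggaaaagctcgtggtcagcc
Suz12 guide 8: tggaggcggcggcagttact
Suz12 guide 9: ctttcacaagcaggacttcc
Suz12 guide 10: catttgcaacttacatttac

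The libraries held between 1008492 and 3541896 reads, and the 110 guides together took between 0.585% and 0.695% of them. The kept member guides had median reads of 174 and 65 in plasmid libraries 1 and 2, and of 51, 55 and 49 at days 5, 8 and 12, and 0 of them were without reads in any library. The plasmid libraries differed beyond sampling noise (chi-square of 2.21 per degree of freedom over the kept guides) and count as separate libraries. A change is given as log2 of the TMM-scaled CPM (reads scaled to library depth) plus 1 over the plasmid mean plus 1, per guide, and a gene's value is the median over its kept guides with the SD over guides. With 1 library per day, these values at single days have no replicate check, and days 5, 8 and 12 share the plasmid libraries as their reference. Reads come from PCR, so the counting intervals below cover counting error only.

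The zero of this scale is the typical guide of the library, most of which target genes. The 893 kept non-targeting guides, which have no intended target, lay above it, with medians of 0.41, 0.54 and 0.58 at days 5, 8 and 12 (SD 0.70 at day 12). At day 12, 22.3% of them were at least 2-fold up, and the middle of their distribution ran from -0.81 at the 5th to 1.53 at the 95th percentile. Values near 0.58 at day 12 are therefore those of a median non-targeting guide, and centring on these guides would lower every day 12 value by 0.58.

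At day 12, 27 of the 99 member guides were at least 2-fold lower than in the plasmid and 17 at least 2-fold higher. Over all kept guides to genes the shares were 21.5% and 7.39%. Centred on the non-targeting guides, the member counts were 45 and 5. At day 5 the member counts were 16 and 2, beside 12.9% and 1.26% of all such guides. By day 8 they were 22 and 7, beside 17.9% and 2.74%. Of the 11 gene medians at day 12, 3 were at or under -1 and 1 was at or over 1, beside 15.8% and 1.19% of all genes, and the median of the 11 was -0.14 against 0.01 for all genes. At day 8 the 11 medians held 2 at or under -1 (Eed and Rbbp4) and 0 at or over 1, beside 12.1% and 0.178% of all genes. At day 5 none passed either limit, beside 6.3% and 0.0595% of all genes. Most of the higher guides belonged to Ezh2, which gave 9 of the 17.

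Trends over the 5 libraries, with the plasmid at day 0, were tested on the summed reads of a gene's kept guides by edgeR's quasi-likelihood test, with Benjamini-Hochberg adjustment over 1682 genes. Guides to Eed, Jarid2, Aebp2 and Rbbp4 fell and those to Ezh2, Ezh1 and Rbbp7 rose (Ezh1 and Rbbp7 turn below 0, without passing, when scaled on the non-targeting guides), whereas Suz12, Mtf2, Phf1 and Phf19 did not pass. The background of this test is high, with 25.2% of all genes called lower and 34.7% called higher, so 4 and 3 of 11 members lie near it as counts. Scaled on the non-targeting guides, 6 members were called lower and 1 higher. At the level of single guides, 29 of the 99 fell and 19 rose, beside 22.9% and 17.8% of all kept guides, and with that scaling the counts were 51 and 10. Of the non-targeting guides 4.82% were called lower and 45.4% higher in the same guide trend. The trend p-values measure only the spread of these 5 libraries around a straight line over days, since the labels name no separate cultures. Only the plasmid has replicate libraries. That spread therefore mixes departure from a straight line with differences between libraries, and the fit cannot separate them. A course that is flat at first and changes later adds to it.

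Guides to Ezh2, the main catalytic subunit (chromosome 6, 47530274 to 47595270, GRCm38.p6, which is mm10), rose. Summed over guides they had 2245 and 861 plasmid reads, then 721, 1155 and 1809 reads at days 5, 8 and 12. As a share of the library this was 0.0634% and 0.0638% in the plasmid, then 0.0678%, 0.107% and 0.179% (95% exact binomial interval 0.171% to 0.188% at day 12). The day 5 library was thus close to the plasmid, and the increase lay between days 5 and 12. Their median log2 change was 0.20, 0.72 and 1.54 at days 5, 8 and 12 (SD 0.41 at day 12, 10 guides), or 2.91-fold at day 12. Measured from the non-targeting median of each day, these changes were smaller, at -0.21, 0.19 and 0.96. The slope was 0.13 per day (SE 0.017, adjusted p = 0.000360 by edgeR).

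Among the 1682 genes, the median of Ezh2 at day 12 was the 9th highest. Each of its 10 guides lay above 0 at day 12, which held for 2.5% of all genes, and 9 were at least 2-fold up. The range over guides was narrow, from 0.66 for guide 3 to 2.03 for guide 10, and 6 of the 10 exceeded the 95th percentile of the non-targeting guides. Guide 10 had 123 and 32 plasmid reads, then 41, 58 and 114 reads. Guide 2, the most abundant, had 564 and 249 plasmid reads, then 211, 334 and 558. Guide 3 had 194 and 51 plasmid reads, then 45, 62 and 69, and overlaps guide 1 (log2 change 1.73) by 18 bases. In 9 of the 10 the scaled level went up from day 5 to day 8 and again to day 12, beside 22.7% of all guides to genes. Single-guide trends passed for 8 of the 10, with guides 3 and 9 as the exceptions (edgeR adjusted p = 0.137 and 0.0697). The number of Ezh2 guides called was 5 without the day 12 library, 5 when scaled on the non-targeting guides and 4 without the time course, with none called lower in these settings.

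Setting day 12 against day 5 leaves the plasmid libraries out. On that scale 14 of the 99 member guides were at least 2-fold lower and 16 at least 2-fold higher, beside 12% and 4.76% of all guides to genes. The Ezh2 median was 1.50, the 7th highest of all genes, with 10 of 10 guides above 0 and 8 at least 2-fold up, and 0.832% of all genes had a median at or over 1. The median of the non-targeting guides was 0.17. The step from day 5 to day 8 gave 0.58 and that from day 8 to day 12 gave 0.88. The later step was the larger in these libraries but also spans more days, and rates per day were not compared. Guide 9 was the Ezh2 guide with the lowest start, at 24 reads and a log2 change of -0.81 on day 5, and it reached 85 reads and 1.15 on day 12. Against the 2 plasmid libraries as a group, with no time course, the edgeR adjusted p for Ezh2 was 0.105, so this call rests on the course over days.

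Ezh1, the paralogue of Ezh2 (chromosome 11, 101191115 to 101226463), rose with the same scaling. Its guides had 1879 and 756 reads in the plasmid libraries, then 674, 758 and 771. Their median log2 change was 0.26, 0.31 and 0.61 at days 5, 8 and 12 (SD 0.68 at day 12, 10 guides), the last 0.03 above the non-targeting median. The slope was 0.050 per day (SE 0.0069, edgeR adjusted p = 0.000443), and it became -0.0027 (adjusted p = 0.823) when the scaling factors were computed on the non-targeting guides alone. The direction for Ezh1 thus flips with that scaling, whereas the slope of Ezh2 stayed positive at 0.075 (adjusted p = 0.0155). At day 12, 7 of 10 Ezh1 guides lay above 0 and 2 at least 2-fold up, and 4 single-guide trends rose, a share below the 45.4% of the non-targeting guides. That number was 1 without plasmid library 1 and 2 without the day 12 library, and with non-targeting scaling 0 rose and 2 fell.

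The lowest and highest kept guide at day 12 of Ezh1 and the guide nearest in sequence to an Ezh2 guide are shown, since the paralogues could share targets. Capitals mark sequence shared with another Ezh1 guide in the first 2, and the differing bases in the last pair.
Ezh1 guide 6, lowest: GCCAAGAGAGCAATTCAGGC
Ezh1 guide 1, highest: TCTTGGCAAAGatcccaatg
Ezh1 guide 5: catacttGagggcatcagcT
Ezh2 guide 8: catacttCagggcatcagcC
Counted from the 5′ end, Ezh1 guide 5 and Ezh2 guide 8 differ by G8C and T20C. Ezh1 guide 5 had 123 and 55 plasmid reads, then 44, 41 and 84, a log2 change of 1.23 at day 12. Ezh2 guide 8 had 88 and 33 plasmid reads, then 22, 32 and 54, a change of 1.20. Whether either guide cuts the other gene was not tested.

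Eed (chromosome 7, 89954654 to 89980976) went the other way. Its 9 kept guides had 1877 and 718 plasmid reads, then 533, 312 and 264. Their median log2 change was -0.01, -1.02 and -1.03 at days 5, 8 and 12 (SD 1.00 at day 12), which left 49.1% of the plasmid level. At day 5 the Eed median was near the plasmid level on this scale, though single guides ran from -1.17 to 0.41. That median was -0.42 when centred on the non-targeting guides and 0.28 when corrected for guide base composition. The median step was -0.85 from day 5 to day 8 and -0.15 from day 8 to day 12. The slope was -0.081 per day (SE 0.016, edgeR adjusted p = 0.00272). Without the time course the adjusted p was 0.124. The day 12 median was the 260th lowest of 1682 genes.

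At day 12, 8 of the 9 Eed guides lay below 0 and 5 were at least 2-fold lower, and 5 single-guide trends fell with none rising. Guide 4 changed most, with 163 and 70 plasmid reads, then 34, 13 and 5, a log2 change of -2.98 at day 12. Guide 3 had 170 and 64 plasmid reads and 67 at day 5, then 23 and 20, so its loss of -1.51 from day 5 to day 8 was the largest step of any Eed guide. Guide 7 was the exception, with 101 and 35 plasmid reads, then 34, 36 and 45, a change of 0.80. It shares 11 bases with guide 5, whose change was -1.22. From day 5 to day 12 the Eed median was -1.02, beside 7.02% of all genes at or under -1, and 7 of the 9 guides went down at both steps, beside 26.4% of all guides to genes.

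The number of Eed guides called lower, 5, became 2 without plasmid library 1 or without the day 8 library, and 3 without plasmid library 2 or the day 12 library. With the GC offset, which corrects for guide base composition, 2 Eed guides were called lower and 1 higher. Eed guide 2 was left out by the read minimum, with 16 and 4 plasmid reads, 2 at day 5 and 0 at days 8 and 12.

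Suz12 (chromosome 11, 79993106 to 80034123) had no common course. Its 8 kept guides had 2349 and 831 plasmid reads, then 454, 652 and 851. The sum thus lay lowest at day 5. By median the log2 change was -0.60, -0.86 and -0.63 at days 5, 8 and 12, with an SD over guides of 1.50 at day 12, the 98th largest among all genes. The slope of 0.031 per day (SE 0.021) did not pass (edgeR adjusted p = 0.237), and it was -0.020 with non-targeting scaling and -0.027 without the day 12 library, again without passing. The median and the sum have opposite signs, since the ratio of summed scaled counts at day 12 gave 0.51.

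Guides 1, 5 and 8 of Suz12 lay above 0 at day 12 and the other 5 below. Guide 8 had 180 and 86 plasmid reads, then 65, 148 and 235, a log2 change of 2.12. That lay above every Ezh2 guide before correction for base composition. Guide 1 had 512 and 223 plasmid reads, then 142, 268 and 374, a change of 1.37. Guide 5 had 179 and 65, then 44, 66 and 82, a change of 0.82. These 3 guides were near the plasmid level at day 5, between -0.24 and 0.11, and higher at each later day. Trends of guides 1 and 8 rose (edgeR adjusted p = 0.000781 and 3.33e-05).

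Among the lower Suz12 guides, the courses differed. Guide 3 had 531 and 164 plasmid reads, then 59, 43 and 50, a log2 change of -1.26 at day 5 and -1.32 at day 12. Guide 10 had 280 and 113 plasmid reads, then 39, 38 and 34, a change of -1.12 at day 5 and -1.14 at day 12. Both were at their low level by day 5 and stayed there. Guide 6 went from -0.54 at day 5 to -2.25 at day 12, with 231 and 32 plasmid reads, then 32, 20 and 8, so its plasmid libraries differ by more than their depths do. Guides 3, 6, 7 and 10 fell by the single-guide trend of edgeR, and the number called lower was 2 without plasmid library 1. None of the 10 Suz12 guides shares a run of 10 bases with another.

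Guide base composition moved with these values. Of the 3 higher Suz12 guides, guide 1 and guide 8 have 13 G or C bases and guide 5 has 14, whereas guides 3, 6 and 10 have 5, 5 and 6. Guides 2 and 7 have 12 each, yet also lay below 0 at day 12, at -0.45 and -0.81. Over the 8 kept Suz12 guides the correlation of G and C bases with the day 12 change was 0.82, a description over guides that share the libraries. Among the non-targeting guides the change against the plasmid was higher by between 0.12 and 0.13 per G or C base at days 5, 8 and 12. Subtracting that slope left 5 Suz12 guides below 0 and 3 above, with a median of -0.53 and an SD of 1.13. Guide 3 moved from -1.32 to -0.56 and guide 10 from -1.14 to -0.50, so that 1 Suz12 guide in place of 3 was at least 2-fold lower. Suz12 guide 8 moved from 2.12 to 1.88. That is below Ezh2 guides 1, 2 and 10, which were at 2.00, 1.93 and 2.17 after the same subtraction. With the GC offset the single-guide trend called 2 Suz12 guides lower in place of 4. Cell libraries set against each other gave slopes of -0.0049, 0.0035 and -0.0014 for the 3 pairs, and from day 5 to day 12 Suz12 guides 1, 5 and 8 changed by 1.57, 1.06 and 2.01. Ezh2 guides span only 9 to 11 such bases, and the same subtraction gave an Ezh2 median of 1.68 and an Eed median of -0.89.

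The read ratio within a library needs no scaling. Ezh2 guides had 1.20 times the reads of Eed guides in both plasmid libraries, then 1.35, 3.70 and 6.85 times at days 5, 8 and 12 (95% exact interval 6.02 to 7.83 at day 12). Against Suz12 the ratio was 0.956 and 1.04 in the plasmid, then 1.59, 1.77 and 2.13. Both ratios were lowest in the plasmid and highest at day 12. The log2 ratio of Ezh2 to Eed reads had a slope of 0.21 per day, between 0.17 and 0.22 when each library was left out in turn. That of Ezh2 to Suz12 had a slope of 0.094, between 0.085 and 0.11. In a two-sided exact permutation test of the days over the 5 libraries, each gave an unadjusted p of 0.0167, the smallest that the 60 arrangements allow. The ratios and the test were chosen after these values were seen. This p therefore describes the order of the libraries and is not separate support.

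Of the 10 ratios of Ezh2 to another member, those to Eed, Suz12, Jarid2, Aebp2, Phf1, Phf19 and Rbbp4 gave this unadjusted p of 0.0167. With Benjamini-Hochberg adjustment of the permutation test over the 10 ratios it was 0.0238. The ratios to Ezh1 and Mtf2 gave an unadjusted exact permutation p of 0.05 (adjusted 0.0556), and the ratio to Rbbp7 gave 0.100 (adjusted 0.100). At day 12 the ratio to Ezh1 was 2.35, that to Jarid2 9.00 and that to Rbbp4 4.97, from 1.19, 1.41 and 1.09 in plasmid library 1. All 10 ratios share the Ezh2 reads and are not independent, and they too were chosen after the values were seen. The adjusted p-values of this permutation test are thus no separate support either.

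Jarid2, a DNA-binding accessory subunit (chromosome 13, 44730774 to 44921643), had the lowest median of the members after Rbbp4. Its 7 kept guides had 1587 and 615 plasmid reads, then 287, 247 and 201. The level was already low at day 5 and lowest at day 12. The median change was -0.55, -0.69 and -1.66 at days 5, 8 and 12 (SD 1.03), or 3.16-fold lower at day 12, and the slope was -0.097 per day (SE 0.016, edgeR adjusted p = 0.000950). At day 12, 6 of 7 guides were at least 2-fold lower, and 5 single-guide trends fell, which became 3 without either plasmid library or without day 12. Guide 3 went from 547 and 232 plasmid reads to 83, 44 and 21, a change of -2.80. Guide 1 went from 363 and 124 plasmid reads to 51, 78 and 124, so it lay at -0.99 at day 5 and 0.45 at day 12.

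Aebp2, a zinc finger protein found in the same form of the complex as JARID2 (chromosome 6, 140622454 to 140678472), had a smaller median change. Its 9 kept guides had 1790 and 717 plasmid reads, then 520, 471 and 339. All 9 lay below 0 at day 12, as did all kept guides of 11.2% of genes, yet only guide 9 was 2-fold lower. The median change was -0.10, -0.24 and -0.45 (SD 1.01 at day 12), and the slope was -0.038 per day (SE 0.0099, edgeR adjusted p = 0.00950). The call was lost without the day 12 library (adjusted p = 0.117) and without the time course (0.165). Guide 9 had 121 and 44 plasmid reads, then 25, 18 and 2, a change of -3.46, whereas guide 10, which shares 12 bases with it, was at -0.36.

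The lowest and highest kept guides at day 12 of both genes follow, because they carry the spread within each gene, with capitals as for the first set.
Jarid2 guide 3, lowest: ggcccaGGCTGCAAGCACAA
Jarid2 guide 1, highest: gctagtagaggacacttggg
Aebp2 guide 9, lowest: gtgttcgtTTGCTTGTGGAA
Aebp2 guide 5, highest: CGACATGTATGGAGCGAATg
Jarid2 guide 3 overlaps guide 10 on the other strand by 14 bases. Guide 10 was left out by the read minimum, with 89 and 27 plasmid reads, and had 30, 47 and 31 reads in cells, so this pair did not move together. Aebp2 guide 5 was at -0.19.

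The Polycomb-like proteins bind DNA and join PRC2 in place of JARID2 and AEBP2, and none of their 3 genes passed the gene trend. Mtf2 (chromosome 5, 108065660 to 108109219) had a median log2 change of 0.25, 0.30 and 0.30 at days 5, 8 and 12 (SD 0.82 at day 12, 8 guides) and a slope of 0.026 per day (SE 0.012, edgeR adjusted p = 0.0888). Phf1 (chromosome 17, 26933127 to 26937908) had -0.09, 0.22 and 0.08 (SD 0.70, 9 guides) and a slope of -0.019 (SE 0.0080, edgeR adjusted p = 0.0695). Phf19 (chromosome 2, 34893752 to 34914353) had 0.01, -0.06 and -0.14 (SD 0.73, 10 guides) and a slope of 0.0066 (SE 0.0091, edgeR adjusted p = 0.555). The 3 medians thus lay between -0.14 and 0.30, below the non-targeting median at day 12, and their guides fell on both sides of 0. Other settings passed the threshold for all 3. Phf1 fell with non-targeting scaling (slope -0.071, edgeR adjusted p = 0.00140), and Mtf2 rose with the GC offset (slope 0.054, edgeR adjusted p = 0.0109). Phf19 fell with non-targeting scaling (slope -0.046, edgeR adjusted p = 0.0162) and rose with the GC offset (slope 0.024, edgeR adjusted p = 0.0470), so it has no settled direction.

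The lowest and highest kept guides at day 12 of these genes are shown with the same capitals.
Mtf2 guide 10, lowest: ttcagaagctcccaatgaaa
Mtf2 guide 8, highest: ttgaggacaGTTCCAAATCC
Phf1 guide 4, lowest: tggCGATTGCAAAGACACAC
Phf1 guide 3, highest: CAGCCGGTTCCCAGGTACCA
Phf19 guide 5, lowest: CAGTATATTCGACTTCAcac
Phf19 guide 6, highest: agtTGGTGATAGAGGACTTG
Phf1 guide 4 had 549 and 230 plasmid reads, then 70, 77 and 54, a log2 change of -1.47 at day 12. It shares 17 bases with Phf1 guide 1, which was at -0.14. Phf19 guide 6 had 140 and 47 plasmid reads, then 51, 99 and 93, a change of 1.40, and shares 17 bases with guide 3 at -0.23. Of the 27 kept guides of the 3 genes, 5 fell and 2 rose by the single-guide trend of edgeR. Over all kept guides the shares were 22.9% and 17.8%. At day 12, 0 guides of each gene exceeded the 95th percentile of the non-targeting guides, and 2 of each lay under their 5th.

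Rbbp4 (chromosome 4, 129307100 to 129335370), a WD40 histone chaperone of several chromatin complexes, had the lowest median of the members. Its 10 guides had 2064 and 795 reads in the plasmid libraries, then 428, 411 and 364. Most of the loss in summed reads was present at day 5, whereas the median fell further at days 8 and 12. The median log2 change was -0.86, -1.31 and -1.76 at days 5, 8 and 12, or 3.39-fold lower at day 12, and the slope was -0.056 per day (SE 0.012, edgeR adjusted p = 0.00373). The SD over guides, 1.76, was the 28th largest of all genes, because 7 guides were at least 2-fold lower while guide 9 was up by 1.42. The ratio of summed scaled counts, which the abundant guides dominate, was -0.58, and the median was -0.84 with at least 100 plasmid reads.

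Rbbp4 guide 2 changed most of all member guides, from 388 and 103 plasmid reads to 21, 5 and 2, a log2 change of -4.91. Guide 9 had 193 and 70 plasmid reads, then 57, 130 and 134. Guides 5 and 8 stayed near the plasmid level, at -0.05 and 0.05. By the single-guide trend 7 guides fell and 1 rose.

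Rbbp7 (chromosome X, 162760372 to 162779090), the paralogue of Rbbp4, is a histone chaperone of the same kind. Its 9 kept guides had 1630 and 648 plasmid reads, then 633, 631 and 570. The median log2 change was -0.15, 0.10 and 0.26 (SD 1.05 at day 12), and the slope was 0.035 per day (SE 0.0092, edgeR adjusted p = 0.0112). It became -0.018 (adjusted p = 0.133) with non-targeting scaling, so its direction flips, and the adjusted p was 0.0639 without plasmid library 1. At day 12, 2 guides were at least 2-fold higher and 1 at least 2-fold lower. Whether Rbbp4 and Rbbp7 differ was not tested.

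The extreme guides of both chaperone genes are shown for the spread that they carry, with the same capitals.
Rbbp4 guide 2, lowest: gatacagaacaaatcaccca
Rbbp4 guide 9, highest: TCTGGATCCACACTtccttc
Rbbp7 guide 3, lowest: gaactcgagcaaccaccaga
Rbbp7 guide 9, highest: aagccaCTGAACGGTAAGAC
Rbbp4 guide 9 shares 14 bases with guide 7, which had 291 and 101 plasmid reads, then 33, 23 and 25, a change of -1.52. Rbbp7 guide 9 had 152 and 75 plasmid reads, then 166, 146 and 134, so it was up by 1.66 at day 5 already.

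Overlap in sequence between guides of a gene was set beside their changes. Of the 110 guides, 57 share a run of at least 10 bases with another guide of their gene, in 39 of 495 pairs. Over the 36 such pairs with both guides kept, the median absolute difference in day 12 change was 0.78, beside 0.77 over the other 365 pairs. The changes had opposite signs in 38.9% of overlapping and 35.1% of other pairs. The pairs share guides and genes, and no test was made.

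Other chromatin genes of the library give a scale for these values. Of 26 listed genes of PRC1, the complex that reads and extends polycomb silencing, 17 were present. Their medians at day 12 ran from -2.09 for Pcgf6 to 0.57 for Bcor, with 7 genes called lower and 4 higher in the gene trend and none at or over 1. Of 15 genes on a mixed list of other genes linked to H3K27 or to polycomb, 5 were present. They ran from -1.40 for Asxl1 to 0.25 for Lcor, with 2 called lower and 1 higher. Of 20 genes of other complexes that hold RBBP4 or RBBP7, 15 were present, from -2.81 for Sap18 to 0.43 for Mta3, with 7 called lower and 4 higher. Over all 1682 genes the gene trend called 25.2% lower and 34.7% higher. The Ezh2 median of 1.54 lay above every gene of the 3 lists, whereas those of Eed, Jarid2 and Rbbp4 lay within the range of the first and the third.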

How the data were processed

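Read counts per guide were deposited as 1 table per library, as whole numbers with no normalization, per the file headers and values. The submitters' processing notes name cutadapt, Bowtie, featureCounts and mm10 without versions. How guide reads were matched is not given in the sources used here. The 5 tables were joined by guide, and gene coordinates were taken from RefSeq GRCm38.p6.

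Guides with at least 30 reads in both plasmid libraries were kept. Trends were fitted with edgeR 4.0.16 (R 4.3.3), TMM factors and 3 residual degrees of freedom, on gene sums and on guides. The adjusted p threshold was 0.05. The fit was also tested on counts simulated with known slopes and a fixed spread, which does not show how reliable the calls in these libraries are. DESeq2 1.42.0, other scalings, filters, pseudocounts, a GC correction and left-out libraries were alternatives. The pseudocount dampens changes of low guides. The ratio slopes and their permutation test were added after the values were seen.

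Members and compared lists were chosen with earlier results of these data known. All 11 members are named. Guide sequences are all those of Ezh2, Eed and Suz12, and the extreme kept guides at day 12 of the others, plus 1 Ezh1 guide chosen for its likeness to an Ezh2 guide. Guide cut sites were not analysed here. No sample was left out.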

Additional observations from a re-analysis of the deposited data

Results flagged for a closer look

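The Phf1 guides had a median log2 change of 0.082 at day 12 and -0.09 at day 5, of the other sign, and the difference was not tested. The Phf19 median was -0.14 at day 12 and 0.01 at day 5. The Rbbp7 median was 0.26 at day 12 and -0.15 at day 5. For both, too, the sign differed between the days and the difference was not tested, and all 3 changes are smaller than the SD over the guides of the gene.

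Rbbp7 guide 5, left out by the read minimum, reached 34.7 CPM at day 12 (reads scaled to library depth, 95% exact interval 24.2 to 48.3), above the 13.6 and 5.18 CPM of plasmid libraries 1 and 2. It had 48 and 7 plasmid reads and 35 at day 12.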

How the results depend on the processing

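The medians of Ezh2 (0.96 to 1.75), Eed (-1.61 to -0.89), Jarid2 (-2.24 to -1.06), Aebp2 (-1.04 to -0.34) and Rbbp4 (-2.34 to -0.58) at day 12 kept their sign in all 12 alternatives. That of Ezh1 did too (0.03 to 0.82), with its lowest value when centred on the non-targeting guides. Scaling on the non-targeting guides turned 5 of the 11 slopes below 0: Ezh1 (-0.0027), Suz12 (-0.020), Mtf2 (-0.027), Rbbp7 (-0.018) and Phf19 (-0.046), of which only Phf19 passed as lower (edgeR adjusted p = 0.0162). That scaling also gave 1 gene trend higher, and 51 guide trends lower and 10 higher. Centring the changes on the median of the non-targeting guides is a separate setting. It gave 37 member guides at least 2-fold lower at day 8 and 45 at day 12. With centring, 1, 0 and 5 guides were higher at days 5, 8 and 12, and 5 gene medians lower and 0 higher at day 12. From day 5 to day 12 it gave 2 gene medians lower (main value 1). A minimum of 100 plasmid reads, which keeps fewer guides, gave 7, 7 and 9 guides lower and 1, 2 and 5 higher at days 5, 8 and 12. It also gave 2 gene medians higher at day 12, and 11 guide trends lower and 6 higher. The added gene was Rbbp7, at 1.13, a value that rests on the 1 guide left for it. A minimum of 1 read gave 2 gene medians lower from day 5 to day 12, and a pseudocount of 5 gave 0. Correcting for GC gave 9 guides lower and 4 higher at day 5, 13 lower at day 8, 5 gene trends higher and 19 guide trends lower. Comparing cells with plasmid, without the time course, left 2 gene trends lower and 9 guide trends higher. Leaving out 1 library at a time gave between 16 (without plasmid library 1) and 34 guide trends lower, and between 2 and 4 guides higher at day 5. No paired analysis was possible because the plasmid has replicates 1 and 2 and each day has 1 library. Depth limits single guides most: a median of about 49 reads at day 12.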
